A study of Mus musculus with 16 samples.

Results

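Aminoacyl-tRNA synthetases attach each amino acid to its transfer RNA and so supply both the cytosolic and the mitochondrial ribosome. Of the 23356 genes in the deposited tables, 36 were taken by symbol: 20 genes for cytosolic enzymes, whose symbols carry no suffix, and 16 genes for mitochondrial enzymes, whose symbols end in the suffix 2. All 36 were present in every table. The cells were NIH3T3, a mouse embryonic fibroblast line, stably expressing a destabilizing domain fused to superfolder GFP (DD-sfGFP), and all groups shared this background. Per the study's methods, the cells had been sorted for high expression of the fusion. The 4 groups of 4 replicates were untreated cells (control, 0 min) and cells taken 45, 135 and 405 min after exposure to bortezomib, an inhibitor of the proteasome. The labels give no dose and do not say whether replicates came from separate cultures, so p-values measure the spread between these libraries, which may be technical.

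Cytosolic synthetases charge tRNAs for the bulk of cellular protein synthesis, and several of them sit in a multisynthetase complex held together by the scaffold proteins Aimp1, Aimp2 and Eef1e1. Mitochondrial synthetases are encoded in the nucleus, imported, and charge the tRNAs that read the few messages of the mitochondrial genome. Gars and Kars are exceptions, because each single gene gives both the cytosolic and the mitochondrial enzyme, and Eprs codes for 1 protein that charges both glutamate and proline. Many cytosolic synthetase genes are textbook targets of Atf4, the transcription factor that acts when the eIF2 alpha kinases of the integrated stress response are active, a state that proteasome inhibition is known to bring about.

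Atf4 binds, together with C/EBP partners, to elements that contain the letters TGATGNAA (N stands for any base), and the promoters were read for these letters on both strands. RefSeq promoter windows (build GRCm38.p6, 250 bases before to 50 bases after the start) were at hand for 13 of the 20 cytosolic and 14 of the 16 mitochondrial genes. The letters occurred in a window of 5 of the 13 cytosolic genes (38.5%), Aars, Gars, Iars, Tars and Yars, and of 0 of the 14 mitochondrial genes. They occurred for 9 of the 27 genes with a window in a list of known Atf4 targets (33.3%). Over all genes with a window, they occurred for 1219 of 27025 (4.51%). A match describes letters in a window and says nothing of binding. No window was used for Cars, Hars, Lars, Nars, Rars, Vars, Wars, Hars2 and Pars2. Stretches that hold a match, 1 for each of the 5 genes, are shown because the cytosolic and the mitochondrial windows differed in them, written 5′ to 3′ along the gene's strand with the matching letters, or their reverse complement, in capitals.

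Aars, chr8:111033840-111033869, plus strand: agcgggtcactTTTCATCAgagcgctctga
Gars, chr6:55037941-55038000, plus strand: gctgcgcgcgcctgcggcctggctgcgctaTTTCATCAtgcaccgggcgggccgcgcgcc
Iars, chr13:49682126-49682155, plus strand: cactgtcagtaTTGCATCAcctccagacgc
Tars, chr15:11399659-11399718, minus strand: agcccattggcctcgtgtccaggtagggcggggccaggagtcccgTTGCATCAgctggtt
Yars, chr4:129189895-129189924, plus strand: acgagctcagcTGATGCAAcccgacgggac

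The libraries were of 2 kinds, and the synthetases had to be read with this in view. In 7 libraries ribosomal protein genes held 4.25% to 9.42% of fragments, and in the other 9, among them all 4 controls, 0.398% to 1.21%. The 7 were replicates 1 and 2 at 45 min, replicates 1 and 2 at 135 min, and replicates 1, 3 and 4 at 405 min, and they are called the course libraries here. They held 1385229 to 19930375 fragments, the others 570323 to 1469951. Summed over 8 fibroblast markers such as Col1a1, Fn1 and Vim, the course libraries had 3415 to 20164 CPM (fragments of a gene per 1000000 fragments of the library), against 215 to 1555 in the other 9. The 9 markers of other cell types summed to 2.83 to 112.6 CPM in the course libraries and to 197.0 to 351.7 CPM in the others. Each of these 9 was at 0 in at least 1 course library, and all but Cdh5 and Myh6 were also at 0 in at least 1 of the others. Olfactory and vomeronasal receptor genes, which fibroblasts are not known to use, held 0.00531% to 2.61% against 4.14% to 5.12% of fragments. No control was a course library, so the course has no untreated starting point, and the kind of library cannot be told apart from the treatment in a comparison of the course libraries with control.

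The balance of cytosolic and mitochondrial synthetases differed between the 2 kinds of library. In the 9 libraries of low ribosomal protein share, cytosolic genes together had fewer fragments than mitochondrial genes, with a ratio of 0.361 to 0.970, and in the course libraries they had 4.03 to 15.2 times as many. The ratio was 0.549 to 0.798 in the 4 controls, and 1.14 to 1.70 without Lars2, a gene described below. The course libraries had ratios of 7.02 and 8.58 (45 min), 11.7 and 6.15 (135 min), and 4.27, 4.03 and 15.2 (405 min). The values of the 3 times overlapped, so the ratio did not separate one time from another within the course. Sums of FPKM, which allow for gene length, gave ratios of 4.34 to 18.2 in the course libraries and 0.458 to 1.12 in the others. Within times the same split appeared: at 405 min replicate 2, the only library of low ribosomal protein share, had a ratio of 0.970 beside 4.03 to 15.2.

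**Figure D1:**
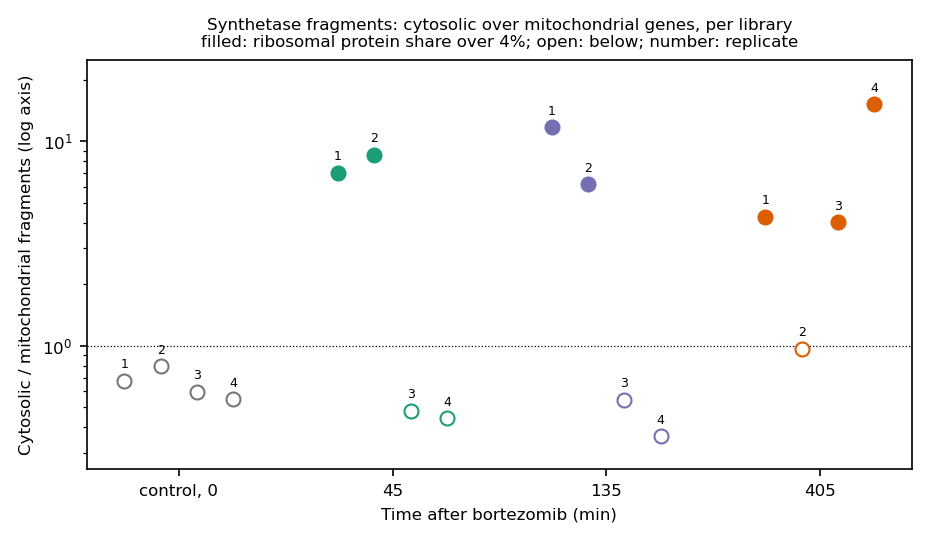
Fragments of the 20 cytosolic synthetase genes divided by those of the 16 mitochondrial genes (log axis) in each of the 16 libraries, by time after bortezomib in min, 1 point per library with its replicate number. Filled points, the course libraries, sit between 4.03 and 15.2, and open points between 0.361 and 0.970.

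Levels per length were compared in the course libraries only. The 20 cytosolic genes had mean FPKM values from 9.55 for Farsa, the alpha subunit of phenylalanyl-tRNA synthetase, to 288.5 for Rars, the arginyl enzyme, with a median of 34.3. The 16 mitochondrial genes ran from 0.988 for Vars2 to 74.2 for Lars2, with a median of 4.21. For 14 amino acids a single cytosolic gene could be set beside a mitochondrial one, with Eprs set beside Ears2, and the cytosolic gene was higher in 85 of 98 cases of 1 pair in 1 library. Of the 14 pairs, 9 had the cytosolic gene higher in all 7 course libraries. In the other 9 libraries this was so in 58 of 126 cases, and only Rars stood above Rars2 in every one.

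The size of the gap within a pair varied widely. The mean FPKM was 218.6 for Nars and 2.92 for Nars2, a ratio of 74.8, and 76.7 for Aars and 1.69 for Aars2, a ratio of 45.5. At the other end, Yars (34.0) and Yars2 (19.5) differed 1.75-fold and Iars (51.3) and Iars2 (21.9) 2.34-fold, and these pairs changed order between libraries. Lars and Lars2 were the one pair in reverse, at 28.7 and 74.2 FPKM, and Lars2 was the higher in 6 of the 7 course libraries and in all 9 others.

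**Figure D2:**
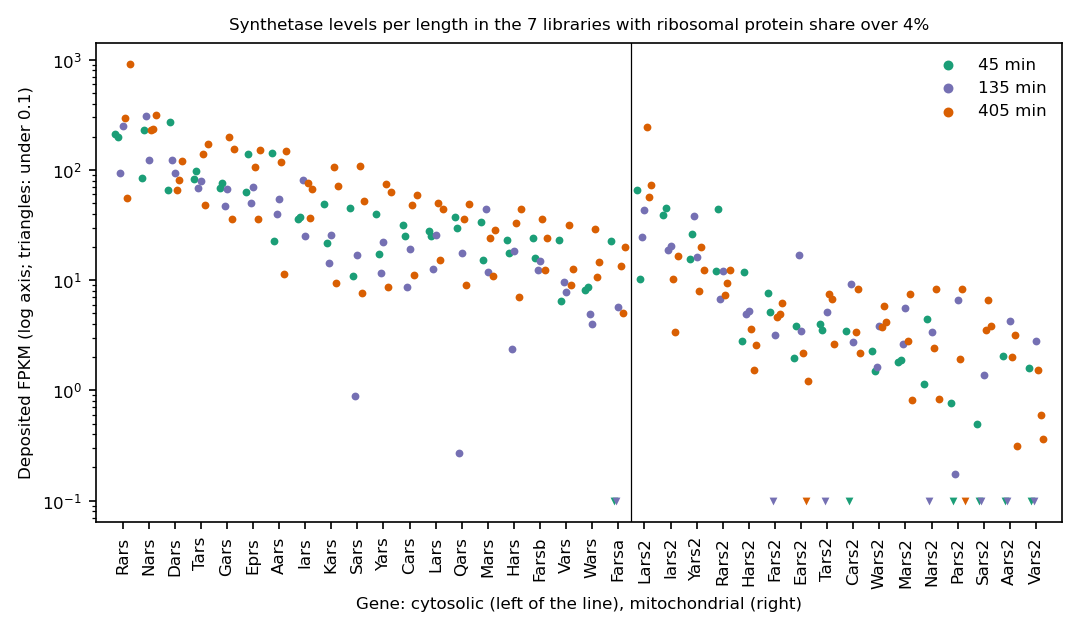
Deposited FPKM (log axis) of all 36 synthetase genes in the 7 course libraries, 1 point per library, coloured by time, with cytosolic genes left of the line and genes ordered by mean within each class. Cytosolic means run from 9.55 to 288.5 and mitochondrial means from 0.988 to 74.2, with Lars2 the highest of its class.

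Lars2, the mitochondrial leucyl enzyme, held from 9.85% (45 min, replicate 2) to 86.1% (405 min, replicate 1) of all mitochondrial synthetase fragments. Its fragments moved with those of Rn45s, the entry for the 45S ribosomal RNA precursor, a gene looked at after the Lars2 values had been seen. Over the 12 control, 45 min and 135 min libraries, Rn45s spanned 514.4 to 13280 CPM, a 25.8-fold range, and Lars2 28.7 to 722.5 CPM, a 25.2-fold range. In these 12 libraries there were 3.64 to 6.93 Lars2 fragments for every 100 Rn45s fragments, a span of 1.91-fold. For Mars2, the only other mitochondrial member above 0 in all 12, the same measure spanned 13.5-fold. In all 4 libraries of 405 min Rn45s was listed at 0, while Lars2 had 219.9 to 1207 CPM. What part ribosomal RNA had in the Lars2 values was not tested. Without Lars2 the ratio of cytosolic to mitochondrial fragments was 7.87 to 41.3 in the course libraries and 0.665 to 1.82 in the others. Among those others, the cytosolic genes then had fewer fragments only in replicate 3 of 45 min (0.949) and replicate 4 of 135 min (0.665). The lower cytosolic sum in the rest of them, the controls included, thus rested on Lars2.

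**Figure D3:**
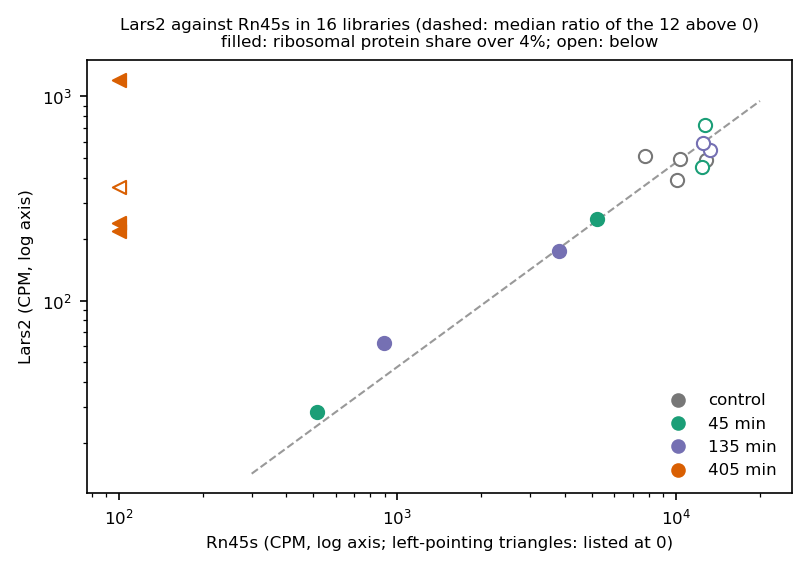
Lars2 against Rn45s, both in CPM on log axes, 1 point per library, coloured by time and filled for course libraries. The 12 libraries with Rn45s above 0 lie along 1 line of 3.64 to 6.93 Lars2 fragments per 100 Rn45s fragments, and the 4 libraries of 405 min, drawn as triangles at the left edge, had Rn45s listed at 0.

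To ask how bortezomib moved the synthetases over time, 405 min was first compared with 45 min and with 135 min in the course libraries. A gene was tested when it had at least 1 fragment in each of the 7, which 19 cytosolic and 7 mitochondrial members did. Farsa was the cytosolic gene left out, with 0 fragments in 2 course libraries, and Hars2, Iars2, Lars2, Mars2, Rars2, Wars2 and Yars2 were the mitochondrial genes kept. At 405 against 135 min, 18 of 19 cytosolic members had a positive log2 fold change (57.0% of all 8605 tested genes did), with a median of 1.40 beside 0.16 over all tested genes, and 3 of 7 mitochondrial members were positive, with a median of -0.03. At 405 against 45 min, 17 of 19 cytosolic members were positive (55.7% of all tested genes), with a median of 0.78 beside 0.14 over all tested genes, and 3 of 7 mitochondrial members, with a median of -0.27. At 135 against 45 min, 2 of 19 cytosolic members were positive (46.3% of all tested genes), with a median of -0.78, and 3 of 7 mitochondrial members, with a median of -0.33. The comparisons share libraries, the 405 min ones in particular, and are not independent of one another. Rn45s was listed at 0 in every library of 405 min and above 0 in every library of the other times. Whether the data of 405 min were processed in another way was not tested. Such a difference could not be told apart from time in any comparison with 405 min, those with control included. In bulk RNA a change in the number of cells of a kind and a change in RNA per cell cannot be told apart.

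No gene passed the threshold in any of these comparisons. edgeR's quasi-likelihood test with Benjamini-Hochberg adjustment called 0 of 8605 genes (0.0%), and the lowest adjusted p of a member was 0.69, at 405 against 45 min. At an unadjusted p under 0.05, 3 members were higher at 405 than at 135 min (1.46% of all tested genes were) and 0 lower (1.86%). At 405 against 45 min 1 was higher (3.01%) and 1 lower (4.15%), and at 135 against 45 min 0 were higher (1.28%) and 0 lower (0.36%). DESeq2 called 62 genes at 405 against 45 min, 41 higher (0.476%) and 21 lower (0.244%), 3 at 135 against 45 min and 0 at 405 against 135 min, and no member was among them.

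**Figure D4:**
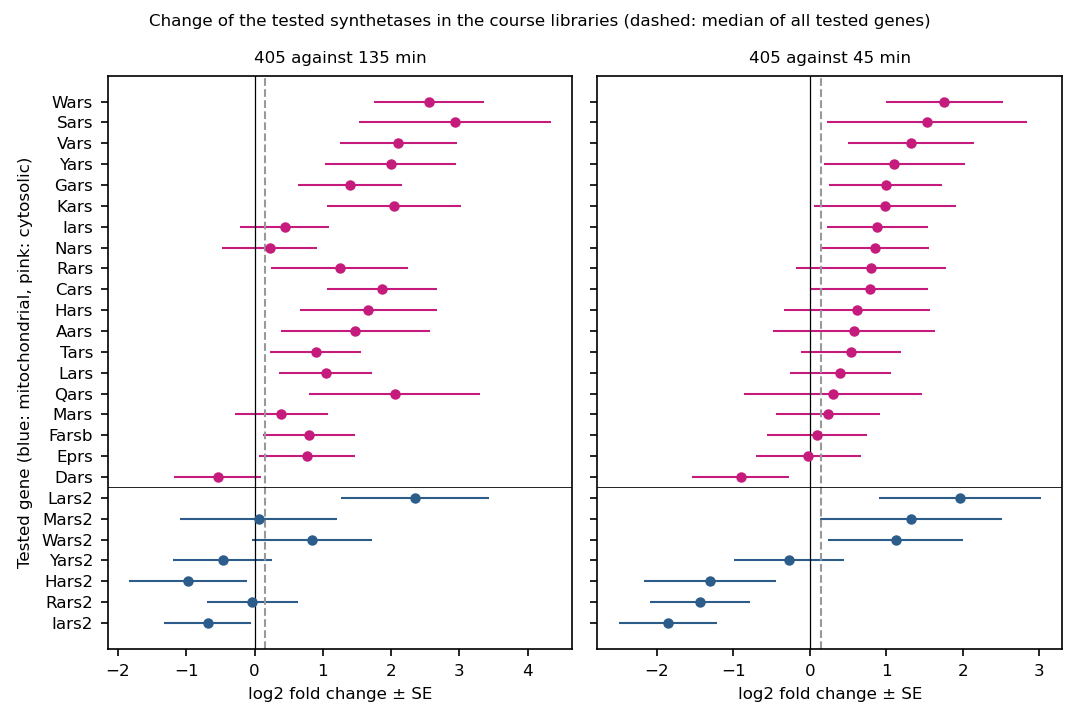
Log2 fold change with its standard error (edgeR) for the 26 tested synthetases at 405 against 135 min (left) and 405 against 45 min (right), cytosolic in pink and mitochondrial in blue. The dashed lines mark the median of all tested genes, 0.16 and 0.14, and 18 and 17 of the 19 cytosolic genes lie above 0.

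The cytosolic values at 405 min came from 2 of the 3 libraries. Replicate 1 lay above both 45 min libraries for 17 of 19 cytosolic genes and replicate 4 for 15, whereas replicate 3 did so for 3 and lay below both for 13. Replicate 3 had the lowest ribosomal protein share of the course (4.25%), the fewest fragments and the highest receptor share (2.61%). The 2 libraries of 45 min differed too, with replicate 1 above replicate 2 for 16 of 19 genes. The median cytosolic level, in log2 (scaled CPM + 1), was 7.0 and 5.90 in the 45 min libraries, 5.67 and 5.91 in those of 135 min, and 8.03, 5.49 and 7.43 in those of 405 min, and the 3 highest were those of the 3 deepest libraries, with 15213857 to 19930375 fragments. The part of depth in these medians was not tested. Mitochondrial medians stayed between 3.87 and 4.98, with the lowest in replicate 1 at 405 min, one of the 3 deepest. Without replicate 3 the cytosolic median was 1.82 at 405 against 135 min and 1.10 at 405 against 45 min, with 11 and 2 cytosolic members higher at an unadjusted p under 0.05 (5.8% and 3.25% of all genes in the same fits). At that level 0 cytosolic members were higher at 405 than at 135 min without replicate 1 of 405 min (0.116% of all genes) or without replicate 1 of 135 min (0.00977%), and 6 without replicate 2 of 135 min (8.93%). The second median was 0.32 without replicate 1 of 405 min, 0.30 without replicate 4 and 0.43 without replicate 2 of 45 min.

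Single cytosolic genes are given as CPM scaled by TMM factors, first 45 min (replicates 1 and 2), then 135 min (replicates 1 and 2), then 405 min (replicates 1, 3 and 4). Wars, the tryptophanyl enzyme, had 18.2 and 14, then 7.92 and 10.6, then 98.4, 30.2 and 34.4. All 3 libraries of 405 min lay above all 4 earlier ones, and replicate 1 stood well above the other two. The log2 fold change was 1.76 ± 0.77 (SE) at 405 against 45 min (edgeR, unadjusted p = 0.044, adjusted p = 0.69) and 2.55 ± 0.80 at 405 against 135 min (edgeR, unadjusted p = 0.0094, adjusted p = 0.91). Vars, the valyl enzyme, had 54.2 and 22.3, then 13.3 and 31.2, then 191.9, 43.8 and 51.9. It lay above the 135 min libraries at 405 min but overlapped with 45 min, with log2 fold changes of 2.11 ± 0.86 and 1.33 ± 0.83. Without replicate 1 at 405 min the log2 fold changes at 405 against 45 min were 1.0 for Wars and 0.32 for Vars.

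Iars and Nars were the other cytosolic genes whose 405 min libraries all lay above those of 45 min. Iars, the isoleucyl enzyme, had 171.3 and 133.1, then 307.5 and 106.2, then 368.2, 185.2 and 288.3. Nars, the asparaginyl enzyme, had 291.0 and 479.1, then 891.8 and 302.5, then 602.2, 693.7 and 790.2. In both genes the 135 min libraries lay far apart, and the log2 fold changes at 405 against 45 min were 0.88 ± 0.66 and 0.85 ± 0.71, the second being 0.54 without replicate 1 of 45 min. Of the 19 cytosolic genes, 3 thus did not overlap upward between 45 and 405 min, where 10.5% of all tested genes did not, and Wars2 was the 1 of 7 mitochondrial genes. Between 135 and 405 min, Vars and Wars, with Lars2 and Wars2 of the mitochondrial genes, did not overlap upward (8.44% of all tested genes) and Hars2 downward (7.07%).

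Sars, Yars, Kars, Gars and Rars had their 3 highest values in the same libraries, replicate 1 of 45 min and replicates 1 and 4 of 405 min. So did Aars, Cars, Farsb, Hars, Lars, Mars, Qars, Tars and Vars, and these were the 3 deepest libraries. Sars, the seryl enzyme, had 126.9 and 31.8, then 1.80 and 57.8, then 473.1, 31.7 and 183.6. In replicate 1 of 135 min the scaled value rested on 5 fragments. Yars, the tyrosyl enzyme, had 110.6 and 39.3, then 22.0 and 59.0, then 283.8, 28.0 and 171.7, and Kars, the lysyl enzyme of both compartments, 104.4 and 35.6, then 20.5 and 46.4, then 260.9, 21.2 and 132.2. Times overlapped in each of these genes. Gars, the glycyl enzyme of both compartments, had 181.2 and 142.2, then 97.6 and 146.4, then 523.9, 94.5 and 344.5. Log2 fold changes at 405 against 45 min were 1.53 ± 1.31 for Sars, 1.11 ± 0.92 for Yars, 0.98 ± 0.93 for Kars and 0.99 ± 0.74 for Gars, all with adjusted p of 0.73 or more by edgeR. These values were 0.45, 0.42, 0.14 and 0.44 in the same order without replicate 1 of 405 min. Without replicate 1 of 45 min they were 2.87, 2.05, 1.97 and 1.19, and without replicate 2 of 45 min 0.92, 0.60, 0.46 and 0.87.

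Rars, the gene of the highest mean FPKM, had 645.3 and 328.1, then 231.8 and 484.8, then 631.1, 128.5 and 1789. Replicate 4 of 405 min stood far above the others, and its log2 fold change at 405 against 45 min, 0.80 ± 0.98, was -0.38 without that library. Eprs had 481.3 and 548.1, then 273.2 and 324.5, then 607.8, 201.0 and 714.8, with a log2 fold change of -0.02 ± 0.69. Dars, the aspartyl enzyme and a member of the multisynthetase complex, was the only cytosolic gene with a negative value in both comparisons with 405 min. It had 242.5 and 471.7, then 371.5 and 183.0, then 123.8, 199.5 and 249.4, with a log2 fold change of -0.90 ± 0.63 at 405 against 45 min, -0.34 without replicate 2 of 45 min, and overlapping libraries. Aars, the alanyl enzyme, had 600.5 and 91.4, then 114.1 and 256.7, then 775.8, 64.2 and 709.0, and Tars, the threonyl enzyme, 253.1 and 203.8, then 164.9 and 192.8, then 425.0, 142.1 and 428.6. In both genes replicates 1 and 4 of 405 min were the highest of the 7 and replicate 3 the lowest. Their log2 fold changes at 405 against 45 min, 0.58 ± 1.06 and 0.54 ± 0.65, were smaller than their standard errors. The same held for Farsb, Hars, Lars, Mars and Qars, from 0.09 ± 0.66 for Farsb to 0.62 ± 0.95 for Hars. Farsa, which was not tested, had 528 and 0 fragments, then 0 and 47, then 502, 13 and 530 in the same order of libraries.

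The lower cytosolic values at 135 than at 45 min were not tied to 1 gene, but the median levels of the 2 times overlapped. The median log2 fold change of -0.78 was -0.12 without replicate 1 of 45 min and -1.07 without replicate 2 of 135 min. The 2 libraries of 135 min lay below both of 45 min for Cars, Eprs, Qars, Tars and Wars, 5 of 19 cytosolic genes, where 18.3% of all tested genes did so, and so did Iars2 and Rars2. Mars2 was the 1 member with both above 45 min (16.9%). The lowest values were in replicate 1, where Qars, the glutaminyl enzyme, had 0.36 scaled CPM beside 35.9 in replicate 2. Cars, the cysteinyl enzyme, had 96.1 and 58.7, then 18.4 and 54.5, then 189.3, 40.8 and 168.4, and a log2 fold change of 1.87 ± 0.80 at 405 against 135 min (edgeR, unadjusted p = 0.042, adjusted p = 0.91).

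Among mitochondrial genes, Iars2 and Rars2 had their highest values at 45 min. Iars2, the mitochondrial isoleucyl enzyme, had 148.9 and 127.6, then 55.1 and 67.6, then 42.6, 13.6 and 56.8. Both libraries of 45 min lay above all 5 later ones, and the log2 fold change at 405 against 45 min was -1.86 ± 0.64 (edgeR, unadjusted p = 0.015, adjusted p = 0.69). Iars2 was the member with the smallest unadjusted p in that comparison, and its value was -2.30 to -1.48 when single libraries were left out. Rars2, the mitochondrial arginyl enzyme, had 33.1 and 63.0, then 16.2 and 20.0, then 13.6, 18.9 and 20.8, with a log2 fold change of -1.44 ± 0.66, or -0.89 without replicate 2 of 45 min. These 2 of 7 mitochondrial genes did not overlap downward, where 14.6% of all tested genes did not.

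The other mitochondrial genes were split. Hars2 had 10.6 and 28.6, then 16.2 and 14.9, then 10.6, 5.29 and 7.46, with a log2 fold change of -1.31 ± 0.86 at 405 against 45 min, or -0.40 without replicate 2 of 45 min. Lars2 had 269.2 and 32.3, then 70.6 and 159.7, then 1238, 251.7 and 272.3, with 1.96 ± 1.06, or 0.80 without replicate 1 of 405 min and 4.18 or 1.19 without replicate 1 or 2 of 45 min. Its 405 min libraries lay above those of 135 min but overlapped with 45 min, and Rn45s, beside which Lars2 moved in the other libraries, was listed at 0 at 405 min. Mars2, Wars2 and Yars2 had log2 fold changes of 1.32 ± 1.20, 1.13 ± 0.88 and -0.27 ± 0.72 (SE). The 9 mitochondrial genes that were not tested had 0 fragments in 1 or 2 course libraries each. Vars2, the gene of the lowest mean FPKM, had 76 and 0 fragments, then 0 and 61, then 148, 4 and 25 in the same order.

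The comparison with control used all 16 libraries and only 12 members, since 24 had 0 fragments in at least 1 library. The 10 cytosolic members tested were Aars, Eprs, Iars, Kars, Nars, Rars, Sars, Tars, Vars and Yars, with medians of the log2 fold change of 1.91 (45 min), 1.37 (135 min) and 3.0 (405 min), beside 0.14, 0.16 and 0.11 over all 5030 tested genes. A positive value was found for 9, 9 and 10 of these 10, where 54.9%, 56.2% and 53.1% of all tested genes had one. The 2 mitochondrial members, Lars2 and Mars2, had medians of -0.44, -0.11 and -0.19. By edgeR 0 of 5030 genes passed in each of the 3 comparisons (0.0%). Taking an unadjusted p under 0.05 in place of the adjusted one, 2, 4 and 9 of the 10 cytosolic members were higher (12.1%, 7.83% and 14.5% of all tested genes) and 0 of the 12 members was lower (0.775%, 1.35% and 1.51%). Rars had the largest value at each time, 3.87 ± 1.44, 3.56 ± 1.42 and 5.16 ± 1.52, with adjusted p of 0.38, 0.51 and 0.28 by edgeR. DESeq2 called Rars and Tars at 45 min (6.56% of all 5030 tested genes) and Nars and Rars at 135 min (3.44%). At 405 min it called Aars, Iars, Nars, Rars, Sars and Tars (8.03%), and all calls were higher. DESeq2 gave Kars, Vars, Yars and Mars2 no adjusted p at any time. Nor did it for Sars at 45 and 135 min, or for Iars and Tars at 135 min, so these were left unjudged there. Lars2, the only mitochondrial member given an adjusted p, was not called. Leaving out 1 library moved these values. The cytosolic median was 0.83 at 45 min without its replicate 1 and 0.69 at 135 min without its replicate 2. At an unadjusted p under 0.05, 4 of the 10 cytosolic members were higher at 405 min without its replicate 1 (9.38% of all genes in that fit) and 6 without its replicate 4 (5.41%). The count was 0 at 45 min without its replicate 1 (4.44%), and 0 at 135 min without replicate 3 (2.88%) or 4 (3.1%) of control.

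Values within a time can be set beside the kind of library. Rars had 1.16 to 41.8 CPM in the 4 controls. At 405 min it had 615.5, 52.0, 122.7 and 1445 CPM in replicates 1 to 4, and the lowest was replicate 2, the library of low ribosomal protein share. At 45 min it had 604.2 and 291.0 CPM in the 2 course libraries and 23.1 and 24.0 in the other two, inside the control range. At 135 min it had 204.2 and 533.4 CPM in the 2 course libraries, and 149.0 and 23.8 in the other two, the first of which lay above the controls and above replicate 3 of 405 min, a course library. Nars likewise had 28.9 to 58.0 CPM in control, 587.4 to 662.7 in the course libraries of 405 min, and 120.8 in replicate 2 of that time. In unscaled CPM, Dars, Eprs, Gars, Iars, Nars and Tars, and of the mitochondrial genes Rars2, were higher in all 7 course libraries than in all 9 others (4.42% of the 22359 genes with a fragment in some library were), and Pars2 was lower in all 7 (6.22%). Between control and 405 min, with all 4 libraries a group, Nars, Rars, Tars and Rars2 did not overlap upward (2.68%) and 0 members downward (7.42%). Tars2 was below all controls in every library of 45 min (4.36%), and Nars2 and Tars2 in every library of 135 min (8.85%). At these earlier times 0 members lay above all controls (0.698% and 0.729% of genes).

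Other genes around tRNA charging were read in the course libraries from lists of the pathway. Of 30 genes known as Atf4 targets, none a synthetase, 27 were tested. At 405 against 135 min, 25 had a positive log2 fold change (57.0% of all tested genes did), with a median of 1.66 beside 1.40 for the cytosolic synthetases, and 11 were higher at an unadjusted p under 0.05 (1.46%). At 405 against 45 min, 24 were positive (55.7%), with a median of 1.43, and 7 were higher (3.01%) and 1 lower (4.15%) at that level. At 135 against 45 min, 13 were positive (46.3%), with a median of -0.13 beside -0.78 for the cytosolic synthetases, and 3 were higher (1.28%) and 0 lower (0.36%). The median level of the list, in log2 (scaled CPM + 1), was 6.15 and 5.05 at 45 min and 4.50 and 5.96 at 135 min. It was 7.86, 5.96 and 7.53 in replicates 1, 3 and 4 of 405 min. The 3 highest were again those of the 3 deepest libraries. Replicate 3 of 405 min lay below replicate 1 of 45 min and did not exceed replicate 2 of 135 min. At 405 against 45 min Atf3, a transcription factor of the stress response, had the smallest unadjusted p of the list, with a log2 fold change of 5.24 ± 0.80. Next came Slc7a11, the cystine transporter, at 4.88 ± 0.85, and Ppp1r15a, which brings the phosphatase to eIF2 alpha, at 4.54 ± 1.26. Their adjusted p were 0.48, 0.67 and 0.69 by edgeR. Atf3 and Slc7a11 had 2.98 ± 0.75 and 2.58 ± 0.79 at 135 against 45 min, where the list median was below 0. Among heat shock genes read as a check of the treatment, Hspa1b had 5.74 ± 1.26 and Dnajb1 4.44 ± 0.97 at 405 against 45 min, each with adjusted p = 0.67 by edgeR.

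Partners of the synthetases and the mitochondrial translation machinery had list medians below 0 at 405 against 45 min. Aimp1 and Eef1e1, the 2 tested scaffolds of the multisynthetase complex, had log2 fold changes of -0.22 ± 0.65 and -0.36 ± 0.67. Of 5 tested partners of charging, Pstk, the kinase that prepares seryl-tRNA for selenocysteine, had -2.69 ± 0.83 (edgeR, unadjusted p = 0.0083, adjusted p = 0.69), and the other 4 ran from -0.48 to 0.63. Of the 5 cytosolic elongation factors, 2 were positive, with a median of -0.07. On the mitochondrial side, 54 of 76 ribosomal proteins were tested, 13 were positive at 405 against 45 min (55.7% of all tested genes were) with a median of -0.29, and of those with an unadjusted p under 0.05, 0 were higher (3.01%) and 7 lower (4.15%). Of 7 tested mitochondrial translation factors, 2 were positive, with a median of -0.11. At 405 against 135 min the medians were -0.54 for the scaffolds, -0.29 for the partners of charging, 0.70 for the elongation factors (4 of 5 positive), 0.49 for the mitochondrial factors (5 of 7) and -0.01 for the mitochondrial ribosomal proteins (27 of 54), beside 0.16 over all tested genes. The 8 fibroblast markers had a median of -1.39 at 405 against 45 min, and 1 of them was positive.

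**Figure D5:**
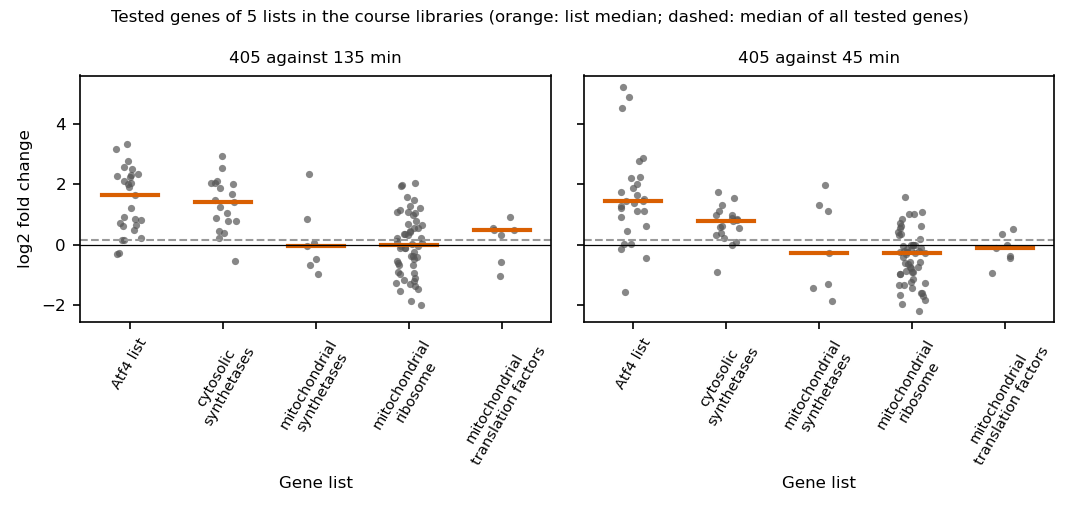
Log2 fold change of each tested gene of 5 lists at 405 against 135 min (left) and 405 against 45 min (right) in the course libraries, with the list median in orange and the median of all tested genes dashed. The Atf4 list and the cytosolic synthetases have medians of 1.66 and 1.40 on the left and 1.43 and 0.78 on the right, and the mitochondrial synthetases and ribosomal proteins have medians of -0.27 and -0.29 on the right.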

How the data were processed

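For every library the authors deposited estimated counts (raw fragments per gene), scaled fragments and FPKM values. A NuGEN Encore kit and an Illumina HiSeq were used. The methods of the study name mm9, RefSeq and DNAnexus, whereas the submitters' processing notes name mm10, and the tables hold no coordinates. Between 98.9% and 99.8% of the estimated counts in a library were whole (within 0.01), and all were rounded. Symbols turned into dates (27, in 1 library) were restored from the shared row order. No 2 of 120 library pairs were identical.

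Counts were tested with edgeR 4.0.16 (quasi-likelihood, TMM, R 4.3.3), adjusted by Benjamini-Hochberg over all tested genes, and called under 0.05. Genes needed at least 1 count in every library of the fit: 5030 genes in all 16 libraries, 8605 in the 7 course libraries (4 residual degrees of freedom). The fit was also run on simulated counts with the same mean profile in every library apart from set changes. These lacked the kinds of library seen here, so the run cannot show how the fit performs on these data. FPKM, as the authors deposited them, were used for levels per length. Total fragments ran from 570323 to 19930375, a 34.9-fold range, so low genes of shallow libraries rest on few fragments. Alternatives were RLE factors, filterByExpr or no filter, DESeq2 1.42.0, a replicate block, a share over 6%, all 16 libraries in the fit, and each library left out.

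Members and lists were chosen with earlier results of these data known. Genes given in full were the 8 cytosolic and 4 mitochondrial members of smallest unadjusted p at 405 against 45 min, Gars, Kars, Eprs, and the highest and lowest mean FPKM of each class, and at most 4 genes a list. Aars, Cars, Qars and others outside this rule were named after their values were seen. Values per library are printed as CPM. 1 further promoter stretch is not reported here.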

Additional observations from a re-analysis of the deposited data

Results flagged for a closer look

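Dixon's test was run on 84 groups of 4 libraries, each 1 measure at 1 time. The measures were the CPM of each gene given in full, the CPM sum of each class, the cytosolic to mitochondrial ratio and the ribosomal protein share. In 6 of the 84, all of them genes, 1 library stood apart at the 95% level, where chance gives about 4.2. At 45 min, replicate 1 was high for Kars (97.8, the others 31.6 to 41.6) and for Sars (118.8, the others 14.4 to 28.6). At 405 min, replicate 1 was high for Vars (187.1, the others 28.6 to 41.9), Wars (96.0, the others 27.7 to 31.2) and Lars2 (1207, the others 219.9 to 361.2). Nars was low at 405 min in replicate 2, with 120.8 CPM beside 587.4 to 662.7, and that library was the one of low ribosomal protein share at that time.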

How the results depend on the processing

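The count of genes called by edgeR was 0 in each of the 6 comparisons, and so was the count of synthetases. DESeq2 gave 330, 173 and 404 genes, with 2, 2 and 6 synthetases, at 45, 135 and 405 min against control. In the course libraries it gave 3 genes at 135 against 45 min and 62 at 405 against 45 min. With filterByExpr the counts were 1 at 405 min against control, 4 at 405 against 135 min and 6 at 405 against 45 min, and with no filter 1, 8 and 16, and 3 at 135 against 45 min. No synthetase was among the calls of these filters, and leaving out single libraries gave 0 calls throughout (0 to 0).

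The cytosolic median exceeded the mitochondrial one in all 22 fits of each comparison with control and in all 15 fits of 405 against 135 min. All 4 controls were of low ribosomal protein share, so no fit with control could tell the treatment apart from the kind of library. In the main fit with control the mitochondrial median was that of 2 genes, Lars2 and Mars2. At 405 against 45 min the cytosolic median was the higher in 13 of 15 fits, and at 135 against 45 min the mitochondrial median was the higher in all 15. With filterByExpr or no filter, which bring in mitochondrial genes at 0 in some libraries, the medians at 405 against 45 min were 0.64 (cytosolic) and 0.76 (mitochondrial). Leaving out 1 library moved the cytosolic median of that comparison between 0.30 and 1.12 and the mitochondrial between -0.56 and 0.35. At 405 against 45 min the log2 fold change of Rars was -0.38 to 1.40 and that of Eprs -0.37 to 0.36 with 1 library left out, and Eprs was 0.36 at a share over 6% and 0.44 with all 16 libraries in the fit. The cause was not tested.

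The median ratio of cytosolic to mitochondrial fragments over the course libraries, 7.02, was 13.9 without Lars2, an alternative chosen after seeing the data, and 6.58 to 7.80 with 1 library left out.

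Whether replicate numbers pair the libraries could not be decided, because deviations from group means also hold the 2 kinds of library. Over 24 pairs of libraries with 1 number the correlation of these deviations ran from -0.76 to 0.61, with 14 over 0.1. Of the 16 libraries, 5 correlated best with their own number. The lowest correlation was that of replicate 4 between 45 and 405 min, a course library only at 405 min. Between 45 and 135 min all 4 correlations were 0.51 to 0.56, and at both times replicates 1 and 2 were the course libraries. With the replicate block 0 genes were called in every comparison, the cytosolic medians against control were 0.98 (45 min), 0.58 (135 min) and 2.79 (405 min), and Eprs had 0.35 at 405 against 45 min with 1 residual degree of freedom.

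The course rests on 2 or 3 libraries a time, with a common dispersion of 0.466 and depths that differ 14.4-fold. Counts of a few fragments in the shallow libraries carry large counting errors.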
